A study of Rattus norvegicus with 8 samples.

Results

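The 10 genes described here encode the calcium/calmodulin-dependent kinases, taken by their symbols from the table of 17337 genes measured in the rat striatum: the CaMKII subunit genes Camk2a, Camk2b, Camk2d and Camk2g, the CaMKI genes Camk1, Camk1d and Camk1g, the CaMKIV gene Camk4, and Camkk1 and Camkk2, which encode the kinases that switch on CaMKI and CaMKIV. All 10 were listed and all 10 passed the filter on low counts, which left 12014 genes. The rule that picks the 10 is their symbols, and it was set with earlier results of these data known. Striatal poly(A) RNA was sequenced in 8 male Sprague-Dawley rats of wild-type genotype. Of these, 4 had self-administered methamphetamine (METH) intravenously in daily sessions and 4 had self-administered saline by the same procedure. Rats of both groups had been trained on food, carried a jugular catheter, were kept for their stable lever pressing, and were anesthetized with ketamine and xylazine before the brain was taken. The labels number the rats 1 to 4 in each group and give neither age nor the part of the striatum.

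Calcium that enters a neuron binds calmodulin, and the loaded calmodulin releases these kinases from their own inhibitory segment. CaMKII assembles into a ring of many subunits, stays active after the calcium signal by phosphorylating itself, and is a main kinase of the postsynaptic density, where it acts on glutamate receptors. CaMKI and CaMKIV act one by one, need a second phosphorylation by CAMKK1 or CAMKK2 for full activity, and carry calcium signals to dendrite growth and to transcription through CREB. In the striatum both branches lie downstream of glutamate and dopamine input to the projection neurons, the cells on which METH acts through released dopamine.

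The comparison asks whether the mRNA of these kinases differed in level between METH and saline rats. None of the 10 genes was called, which required a false discovery rate (FDR) below 0.05 over all 12014 genes in the edgeR quasi-likelihood test and a mean log2 CPM above 1, where CPM is the count scaled to the depth of the library. Over all genes tested 62 were called, which is 0.516%, with 0.449% higher and 0.0666% lower in METH rats. Of the 10, 3 had an unadjusted p below 0.05 (Camkk1, Camk2d and Camk1), beside 11.1% of all genes. Of the 3, 2 were lower and 1 was higher in METH rats, where all genes gave 4.88% lower and 6.26% higher. The Wald test of DESeq2 called 1 of the 10, Camkk1, while limma-voom and the likelihood ratio test called 0. Over all 12014 genes, DESeq2 called 191, limma-voom 60 and the likelihood ratio test 170. In 2 of the 10, Camkk1 and Camk2d, every METH rat lay below every saline rat. Such a separation was seen in 2.65% of all genes in this direction, in 3.75% in the opposite direction and in 6.39% in either. In 7 of the 10 the log2 fold change was below 0, with a median of -0.05 over the 10 genes, against a median of -0.01 and 51.4% of genes below 0 over all genes tested.

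Total counts lay between 18135939 and 21211920 per rat, so that 3 counts corresponded to at most 0.165 CPM, and every kinase gene was counted at least 174 times in every rat. METH rat 3 stood apart on the first principal component of all genes (26.4% of the variance), at 39.5 with the other 7 rats between -24.6 and 5.29. The lowest was saline rat 3, and all saline rats lay below 0 and all METH rats above it. METH rat 3 also had the fewest genes with counts (13142, the others 13333 to 13410). Its TMM scaling factor was the lowest (0.956, the others 0.991 to 1.018). Its 10 most counted genes held 6.06% of its counts, against 4.60% to 5.43% in the others. Saline rat 1 stood apart on 8 listed markers of cortical excitatory neurons, 6 of them in the table, whose summed level was 97.1 CPM there and 11.1 to 25.5 CPM in the other 7 rats. The 10 markers of striatal projection neurons were all tested and 0 were called, with 7 higher and 3 lower in METH rats. Their summed levels ran from 14613 to 15436 CPM in saline rats and from 15424 to 19514 CPM in METH rats, the highest in METH rat 3. Ppp1r1b made up a large part of the sum, with means of 7169 CPM in saline and 8499 CPM in METH rats. The 6 microglial markers were all lower in METH rats, with 2 called (Cx3cr1 and Mpeg1), beside 0.0666% of all genes called lower. Their summed levels were 267 to 310 CPM in saline and 201 to 238 CPM in METH rats. The 5 thalamic markers (4 in the table) summed to 31.3 to 41.7 CPM in saline and 25.8 to 31.9 CPM in METH rats, and the 5 endothelial markers (4 in the table) to 394 to 574 and 395 to 428 CPM. The 5 choroid plexus markers summed to 4.06 to 5.60 CPM in saline and 6.09 to 8.91 CPM in METH rats, without overlap. Of the 5, 3 were at 0 in at least 1 rat. Only 2 of the 5 were tested, and 0 were called. Oligodendrocyte, astrocyte and interneuron markers (6 genes each) had summed levels that overlapped between the groups. All 6 were tested for oligodendrocytes and for astrocytes and 5 for interneurons, and 0 were called. The part of these differences in the kinase values was not tested, and in whole tissue fewer cells of a type cannot be told apart from less RNA per cell.

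To show the regions from which the 3 genes with the lowest p are transcribed, the 250 bases before a RefSeq transcript start are given for each, on assembly GRCr8, whereas the reads were aligned to rn6. Of the 10 genes, 8 had an entry in the RefSeq promoter table. Capitals mark the letters TGACG, the core letters of the cAMP response element through which CREB acts, and GGGCGG, the GC box, each on either strand. The full element TGACGTCA, which holds the core letters on both strands, was searched as well.
Camkk1, chr10:58135685-58135934, plus strand: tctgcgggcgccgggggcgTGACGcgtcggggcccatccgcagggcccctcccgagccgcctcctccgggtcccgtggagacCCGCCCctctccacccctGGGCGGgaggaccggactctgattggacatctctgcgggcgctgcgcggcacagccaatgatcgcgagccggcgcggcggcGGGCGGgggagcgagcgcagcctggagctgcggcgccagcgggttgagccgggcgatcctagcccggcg
Camk2d, chr2:217698301-217698550, plus strand: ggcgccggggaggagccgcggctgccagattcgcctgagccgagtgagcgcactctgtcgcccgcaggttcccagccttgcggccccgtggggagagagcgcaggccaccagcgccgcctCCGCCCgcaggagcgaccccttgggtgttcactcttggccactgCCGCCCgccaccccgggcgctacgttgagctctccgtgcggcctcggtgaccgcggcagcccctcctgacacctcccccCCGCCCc
Camk1, chr4:148047146-148047395, minus strand: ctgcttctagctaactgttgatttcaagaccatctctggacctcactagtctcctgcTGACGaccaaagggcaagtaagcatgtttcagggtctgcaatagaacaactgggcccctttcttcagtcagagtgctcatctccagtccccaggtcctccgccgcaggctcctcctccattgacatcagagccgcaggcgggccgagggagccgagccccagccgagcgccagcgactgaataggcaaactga
The core letters TGACG stood once before Camkk1 and once before Camk1, and the window of Camk2d held none. GC boxes stood 3 times before Camkk1 and 3 times before Camk2d, and the window of Camk1 held none. Among the 8 kinase windows, 3 held TGACG, 4 a GC box and 0 the full element. Over 33469 windows of the same length the shares were 18.2%, 30.5% and 1.59%. These are matches of letters only.

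Camkk1 had the lowest p of the 10. CAMKK1 is the upstream kinase that phosphorylates CaMKI and CaMKIV in their activation loop. Camkk1 was at 172, 160, 160 and 154 CPM (TMM-scaled, here and for all levels below) in saline rats 1 to 4 and at 140, 139, 136 and 137 CPM in METH rats 1 to 4. All 4 METH rats lay below all 4 saline rats, and the METH rats were close to one another. The group levels were 161 ± 7.55 CPM in saline and 138 ± 2.03 CPM in METH rats (SD, n = 4). METH against saline gave a log2 fold change of -0.23 (standard error 0.07, unadjusted p = 0.00484, FDR = 0.224 by the edgeR quasi-likelihood test), or 0.854 times the saline level with a 95% interval from 0.772 to 0.945. By an exact permutation test over the 70 labellings of the rats the two-sided p was 0.0286, the smallest that 4 against 4 allow. The DESeq2 Wald test gave an FDR of 0.0415 and called the gene, among 191 called over all genes. Over the other alternatives the FDR ran up to 0.524. Without saline rat 1, where Camkk1 and the cortical markers were highest, the log2 fold change was -0.20 with an unadjusted p of 0.0207 in the quasi-likelihood fit.

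Camkk2 encodes the sister kinase, which also activates the energy sensor AMPK. It was at 93.1, 90.6, 117 and 100.4 CPM in saline rats and at 79.0, 114.5, 97.5 and 103.6 CPM in METH rats. The groups overlapped over most of their range, and the lowest value of all was that of METH rat 1. The log2 fold change was -0.02 (95% interval -0.27 to 0.22), and its sign turned when saline rat 3 or METH rat 1 was left out. Camkk1 reads made up 57.6% to 64.9% of the reads of the pair in saline rats and 54.9% to 63.9% in METH rats, so these shares overlapped. Shares of this kind compare rats and not genes, because no transcript lengths of the build used were at hand.

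Among the CaMKII genes Camk2d stood out. It encodes the delta subunit, the main form in heart, which is found at a lower level than alpha and beta in forebrain. Camk2d was at 19.5, 20.4, 25.9 and 18.9 CPM in saline rats and at 15.4, 16.7, 9.83 and 16.6 CPM in METH rats. All METH rats were below all saline rats, METH rat 3 was far below the other METH rats, and saline rat 3 was the highest. The group levels were 21.2 ± 3.20 CPM in saline and 14.6 ± 3.26 CPM in METH rats (SD, n = 4), and the log2 fold change was -0.53 (standard error 0.17, unadjusted p = 0.00679, FDR = 0.249 by the quasi-likelihood test). This is 0.692 times the saline level, with a 95% interval from 0.539 to 0.887. The exact permutation test gave a two-sided p of 0.0286, which any 2 groups of 4 without overlap give. Without METH rat 3 the log2 fold change was -0.38 (unadjusted p = 0.0127, quasi-likelihood fit). Without saline rat 3 it was -0.42, with the highest unadjusted p of the fits with 1 rat left out (0.0260, quasi-likelihood fit). As a share of all CaMKII reads in the same rat, which needs no scaling between libraries, Camk2d took 0.649% to 0.830% in saline rats and 0.324% to 0.561% in METH rats, again without overlap. The summed microglial and thalamic markers were also lowest in METH rat 3, at 201 and 25.8 CPM. Among saline rats, however, the microglial sum was lowest in saline rat 3 (267 CPM), where Camk2d was highest. The part of these markers in the Camk2d values was not tested.

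Camk2a and Camk2b encode the alpha and beta subunits, which form most of the CaMKII of forebrain neurons. Camk2a is the subunit whose autophosphorylation is best known from studies of synaptic strengthening. It was at 796, 793, 884 and 741 CPM in saline rats and at 651, 892, 707 and 797 CPM in METH rats. METH rats held both the lowest and the highest of these values. The log2 fold change of Camk2a was -0.08 with a 95% interval from -0.28 to 0.13 (FDR = 0.792, quasi-likelihood test). With single rats left out it ran from -0.16 (without METH rat 2) to -0.0088 (without METH rat 1).

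Camk2b encodes the subunit that also binds actin and places the holoenzyme in spines. It was at 1938, 1960, 2158 and 2114 CPM in saline rats and at 2048, 2150, 2269 and 2100 CPM in METH rats. It varied little within groups, with an SD of 5.38% of the mean in saline rats and 4.42% in METH rats. Its log2 fold change was 0.07 with a 95% interval from -0.07 to 0.21 (FDR = 0.713), so the interval holds changes of at most 1.16-fold up and 0.951-fold down. The reads of Camk2a per read of Camk2b, a ratio within each rat, were 0.411, 0.405, 0.410 and 0.351 in saline rats and 0.318, 0.415, 0.311 and 0.380 in METH rats. METH rats 1 and 3 and saline rat 4 had lower ratios than the other 5 rats, and the groups overlapped.

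Camk2g encodes the gamma subunit, which is expressed in many tissues and in neurons has been described as a carrier of calmodulin to the nucleus. It was at 45.3, 48.0, 51.4 and 43.2 CPM in saline and at 45.5, 50.6, 43.4 and 45.9 CPM in METH rats. The group ranges were nearly the same, with a log2 fold change of -0.02 and a 95% interval from -0.21 to 0.17. The sign turned when saline rat 3 or METH rat 3 was left out.

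**Figure D1:**
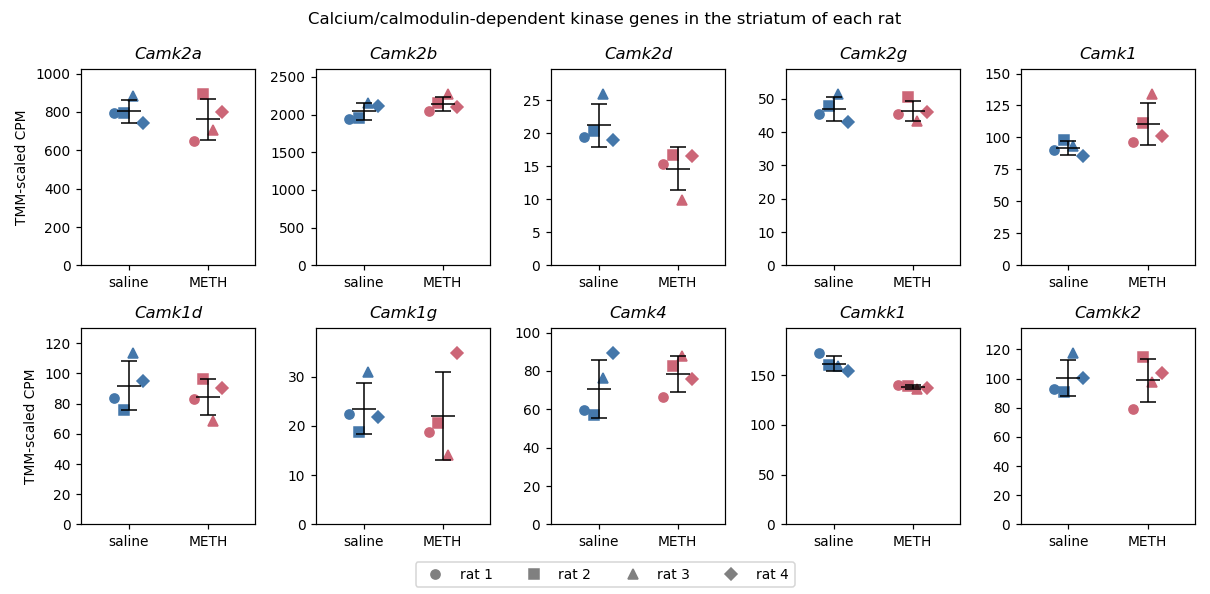
Level of each kinase gene in every rat, in TMM-scaled CPM on an axis that starts at 0, with saline rats in blue and METH rats in red. Each point is a rat, symbols give the rat number within its group, and black bars are the mean ± SD of 4 rats. The groups are apart for Camkk1 (METH at most 140 CPM, saline at least 154 CPM) and Camk2d, and overlap for the other 8 genes.

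Of the genes for CaMKI and CaMKIV, Camk1 had the lowest p. CaMKI, present in most tissues, works in the cytoplasm of neurons in the growth of axons and dendrites. Camk1 was at 90.5, 98.4, 93.0 and 85.2 CPM in saline rats and at 96.5, 111, 134 and 101 CPM in METH rats. METH rat 3 had the highest level and only METH rat 1 fell within the saline range. The group levels were 91.8 ± 5.48 CPM in saline and 111 ± 16.6 CPM in METH rats (SD, n = 4), and the log2 fold change was 0.27 (standard error 0.10, unadjusted p = 0.0182, FDR = 0.347 by the quasi-likelihood test). The exact permutation test gave a two-sided p of 0.0571. Without METH rat 3 the log2 fold change was 0.17 and the unadjusted p 0.0592, and without saline rat 4 the latter was 0.0562, in the quasi-likelihood fits. The summed markers of striatal projection neurons and of interneurons were also highest in METH rat 3. For interneurons the sum was 375 CPM there and 369 CPM in saline rat 1, where Camk1 was at 90.5 CPM. The part of these markers in the Camk1 values was not tested.

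Camk1d encodes the delta form of CaMKI, which is found in brain and in blood granulocytes. It was at 83.8, 75.6, 113 and 94.9 CPM in saline rats and at 83.2, 96.2, 68.8 and 90.6 CPM in METH rats. The lowest value was that of METH rat 3 and the highest that of saline rat 3. For Camk1d this gave a log2 fold change of -0.12 with a 95% interval from -0.39 to 0.16 (FDR = 0.752, quasi-likelihood test). It moved to -0.0025 without saline rat 3, to -0.03 without METH rat 3 and to -0.20 without saline rat 2.

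Camk1g encodes the gamma form, which carries lipid anchors that hold it at membranes and takes part in dendrite growth. It was at 22.5, 18.8, 30.9 and 21.7 CPM in saline rats and at 18.7, 20.6, 14.1 and 34.7 CPM in METH rats. It had the widest spread of the 10 genes in METH rats, with an SD of 40.3% of the mean, and METH rat 4 was the highest and METH rat 3 the lowest of all 8 rats. Its log2 fold change was -0.09 with a 95% interval from -0.59 to 0.40. Without METH rat 4 the log2 fold change was -0.40 (unadjusted p = 0.0458, FDR = 0.491 in the quasi-likelihood fit), and without METH rat 3 it was 0.07.

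Camk4 encodes CaMKIV, the form that works in the nucleus and phosphorylates CREB and its coactivator CBP. It was at 59.5, 57.3, 76.3 and 89.2 CPM in saline rats and at 66.4, 82.6, 88.1 and 75.9 CPM in METH rats. The METH range lay inside the saline range. For Camk4 the log2 fold change was 0.15 with a 95% interval from -0.14 to 0.44 (FDR = 0.703, quasi-likelihood test). Without saline rat 4, the highest of all, it was 0.28 (unadjusted p = 0.0417), and without saline rat 2 it was 0.06.

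**Figure D2:**
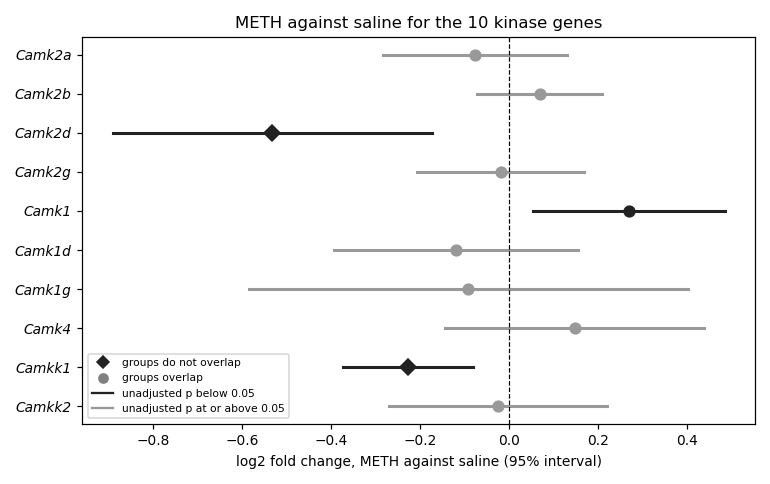
Log2 fold change of METH against saline rats for each kinase gene with its 95% interval from the quasi-likelihood fit. The intervals of Camk2d, Camk1 and Camkk1 leave out 0 before adjustment over all genes, and diamonds mark the 2 genes whose groups do not overlap.

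Across the 10 genes, METH rat 3 was the lowest of the 8 rats in 4 (Camk1d, Camk1g, Camk2d and Camkk1) and the highest in 2 (Camk1 and Camk2b), while saline rat 3 was the highest in 4 (Camk1d, Camk2d, Camk2g and Camkk2). When METH rat 3 was left out, 2 of the 10 genes had an unadjusted p below 0.05 in the quasi-likelihood fit, Camkk1 with a log2 fold change of -0.22 and Camk2d, beside 7.52% of all genes. When saline rat 1 was left out with METH rat 3, a choice made after the data were seen, the same 2 genes had an unadjusted p below 0.05 in the quasi-likelihood fit, with log2 fold changes of -0.19 for Camkk1 and -0.42 for Camk2d, beside 8.32% of all genes, and 0 of the 10 kinase genes were called.

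**Figure D3:**
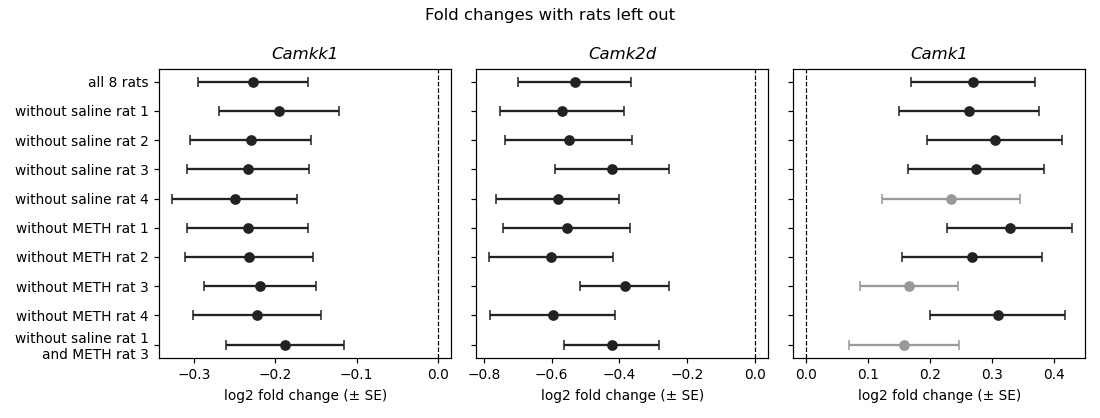
Log2 fold change ± standard error of the 3 kinase genes with the lowest p, with all rats and with each rat left out in turn, and without saline rat 1 and METH rat 3 together. Black points have an unadjusted p below 0.05 in the quasi-likelihood fit. Camkk1 and Camk2d keep it in each fit shown, and Camk1 loses it without saline rat 4, without METH rat 3 and without saline rat 1 and METH rat 3.

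The genes that load and hold calmodulin were 7, of which 0 were called. Nrgn, which encodes neurogranin, a postsynaptic protein that binds calcium-free calmodulin, was at 3831, 3865, 3349 and 3911 CPM in saline rats and at 4553, 4269, 6284 and 4111 CPM in METH rats. All METH rats lay above all saline rats, with METH rat 3 far above the others, and the log2 fold change was 0.36 (unadjusted p = 0.00768, FDR = 0.263, quasi-likelihood test). Gap43, the growth cone protein that binds calmodulin in axons, had a log2 fold change of -0.16 (unadjusted p = 0.0477 in the same test), with overlap of the groups. Pcp4, which encodes a small protein that binds calmodulin, differed by 0.20 on the log2 scale (unadjusted p = 0.0658 in the same test), with overlapping groups.

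Of 6 genes for inhibitors and anchors of CaMKII, 0 were called. Camk2n1 encodes an endogenous protein inhibitor of CaMKII. It was at 1116, 1182, 1076 and 1055 CPM in saline rats and at 1228, 1262, 1547 and 1142 CPM in METH rats. METH rat 4 fell within the saline range and METH rat 3 was the highest. The log2 fold change of Camk2n1 was 0.23 (standard error 0.09, unadjusted p = 0.0248, FDR = 0.379, quasi-likelihood test). Of 12 related kinases of the CaMK group, 0 were called. Cask, which encodes a scaffold with a CaMKII-like domain, had a log2 fold change of -0.38 (unadjusted p = 0.0430), with METH rat 3 at 14.9 CPM and the other 7 rats from 23.1 to 34.6 CPM.

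Of 12 genes for opposing phosphatases and their regulators 0 were called, and 2 had an unadjusted p below 0.05. Rcan2, an inhibitor of calcineurin, was at 490, 468, 481 and 507 CPM in saline rats and at 583, 557, 563 and 571 CPM in METH rats. The groups were well apart and each was narrow. The difference for Rcan2 was 0.22 on the log2 scale (FDR = 0.195). DESeq2 called the gene (FDR = 0.0117), among 191 called over all genes. Ppp1ca, a catalytic subunit of protein phosphatase 1, had a log2 fold change of 0.19 (unadjusted p = 0.0215), and its groups did not overlap.

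Of 15 genes for nuclear substrates and partners, 12 were tested (Crtc3, Mef2c and Hdac7 were not analysed here). Of the 12, 1 was called, beside 0.516% of all genes. An unadjusted p below 0.05 was found for 5, all 5 higher in METH rats, a direction seen at that p in 6.26% of all genes. The list was chosen with earlier results of these data known, so these counts cannot show an excess among nuclear substrates. The median log2 fold change of the 12 was 0.04. The called gene was Crem, a relative of CREB whose locus also makes the inducible repressor ICER. Crem was at 19.2, 24.7, 20.2 and 21.4 CPM in saline rats and at 31.3, 31.6, 32.0 and 35.2 CPM in METH rats. Every METH rat lay above every saline rat, and Crem rose by 0.60 on the log2 scale (FDR = 0.0149 by the quasi-likelihood test, standard error 0.10). Its FDR was 0.0649 without saline rat 4 and 0.0620 without METH rat 4. Srf, which encodes serum response factor, had a log2 fold change of 0.35 (FDR = 0.0720), with METH rats at 202 to 236 CPM and saline rats at 166 to 188 CPM. Hdac5, a histone deacetylase that CaM kinases drive out of the nucleus, had 0.27 (FDR = 0.155). DESeq2 called both Srf and Hdac5, among 191 called over all genes. Crtc2, a coactivator of CREB, had 0.35 and Crebbp, which encodes CBP, had 0.24. Creb1 itself had a log2 fold change of -0.28 with a standard error of 0.23 and overlapping groups.

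Of 11 genes for synaptic substrates, 0 were called and 0 had an unadjusted p below 0.05 in the quasi-likelihood test. The lowest were Grin2a, an NMDA receptor subunit, with a log2 fold change of -0.41 (standard error 0.31; -0.76 with unadjusted p = 0.0185 without METH rat 2, and -0.12 without saline rat 3), and Dlg4, which encodes PSD-95, with 0.09 (standard error 0.07). Of 7 genes of the AMPK branch that CAMKK2 can activate, 0 were called. Prkag2, a regulatory subunit of AMPK, was at 85.0, 80.9, 73.6 and 75.7 CPM in saline rats and at 69.5, 71.0, 68.8 and 70.6 CPM in METH rats, without overlap. Its log2 fold change was -0.17 (unadjusted p = 0.0381, FDR = 0.424, quasi-likelihood test). Over all 67 of the pathway genes outside the 10 kinases that were tested, 1 was called, beside 0.516% of all genes. At an unadjusted p below 0.05, 9 were higher and 3 were lower, beside 6.26% and 4.88% of all genes. The median log2 fold change of the 67 was -0.01. Leaving out METH rat 3 reduced the log2 fold change of Nrgn to 0.21, of Camk2n1 to 0.13, of Cask to -0.23 and of Ppp1ca to 0.13. In that fit the unadjusted p of Gap43, Camk2n1, Cask, Ppp1ca, Crebbp and Prkag2 was above 0.05, and that of Nrgn, Rcan2 and Crtc2 was below it. Such a loss was not particular to METH rat 3. Of the 8 fits with 1 rat left out, Gap43 and Prkag2 kept an unadjusted p below 0.05 in 2 each. Cask kept it in 3, Camk2n1 and Crebbp in 5 each and Ppp1ca in 6.

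**Figure D4:**
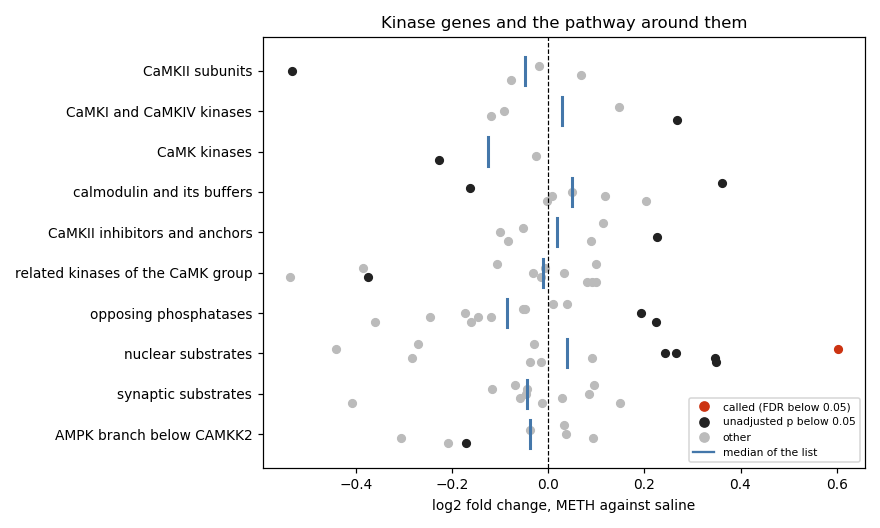
Log2 fold change of METH against saline rats for every tested gene of the kinase lists and of the lists around them, with the median of each list as a blue bar. Crem, in red among the nuclear substrates, is the called gene, and black points have an unadjusted p below 0.05.

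The genes whose pattern over the 8 rats was most like that of Camkk1 were Fez2, Sv2b and Fuca2. Likeness was the mean absolute difference of log2 CPM after each gene was centred and divided by its SD, which was 0.187, 0.208 and 0.216 SD units. These genes were picked for this likeness in the same 8 rats, so lower levels in METH rats follow from the choice. The log2 fold change was -0.26 for Fez2, -0.26 for Sv2b, a synaptic vesicle protein gene, and -0.29 for Fuca2. Their FDR by the quasi-likelihood test was 0.268, 0.178 and 0.295.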

How the data were processed

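Raw counts were deposited by the authors, 1 column per rat, as reads per gene symbol without normalization. Per the labels and methods, paired-end reads were trimmed with Cutadapt 1.18, aligned to rn6 with STAR 2.7.0e and counted with featureCounts of Subread 1.6.4. The annotation, strand setting and treatment of reads with several matches are not given in the sources used here, so a gene that overlaps another or has a close copy is uncertain. No pair of libraries within a group agreed to within sampling error (chi-square over genes, divided by its degrees of freedom, at least 10.4).

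Counts were analysed in R 4.3.3 with edgeR 4.0.16: filterByExpr (minimum count 10), TMM scaling and the quasi-likelihood test of METH against saline over all 12014 genes with Benjamini-Hochberg adjustment. A prior count of 2 entered log2 CPM. Standard errors were the log2 fold change divided by the square root of F, and 95% intervals use the t distribution. DESeq2 1.42.0 and limma 3.58.1 served as alternatives. Levels and intervals rest on 4 rats per group, and the depth of 18135939 to 21211920 counts covers counting error only. The 10 kinase genes and all lists were chosen with earlier results of these data known. All 10 are named, with every list gene at an unadjusted p below 0.05, or else the 2 lowest, the 3 genes most like the kinase of lowest p, and markers. Other genes were named after their values were seen. Promoter sequences are from RefSeq (GRCr8).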

Additional observations from a re-analysis of the deposited data

Results flagged for a closer look

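Of 20 groups of 4 rats (10 kinase genes in saline and in METH rats), 1 held a rat whose gap to the next rat, divided by the spread from lowest to highest log2 CPM, exceeded Dixon's 95% critical value for 4 samples. This was METH rat 3 for Camk2d, with a quotient of 0.842. Chance alone passes that value in about 5% of groups, which is 1 in 20. Camk2d was read 174 times in METH rat 3 and 314 to 351 times in the other METH rats.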

How the results depend on the processing

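None of the 10 kinase genes was called with RLE, upper-quartile or total-count scaling, other gene filters, limma-voom, the likelihood ratio test or robust dispersion. The same held with the replicate block and with any rat left out. A required fold change of 1.5 could only take calls away from the main fit, so it could not have called any. DESeq2 called 1, Camkk1 (-0.23, FDR 0.0415). Over all genes, DESeq2 called 191, the likelihood ratio test 170, the replicate block 37 and the fits with 1 rat left out 37 to 70 (37 without saline rat 2), against 62. The fit without saline rat 1 and METH rat 3, added after the data were seen, called 36. The cause of these differences was not tested. With single rats left out, log2 fold changes ran from -0.40 to 0.0703 for Camk1g, from -0.0637 to 0.0265 for Camk2g and from -0.104 to 0.0682 for Camkk2. The sign turned for Camk1g (0.0679 without saline rat 3, 0.0703 without METH rat 3, and 0.0497 without saline rat 1 and METH rat 3), Camk2g (0.0265 without saline rat 3, 0.0118 without METH rat 3) and Camkk2 (0.0580 without saline rat 3, 0.0682 without METH rat 1). With the replicate block, Camkk1 was at -0.23 (edgeR FDR 0.524), Camk2d at -0.54 and Camk1 at 0.26, with 3 kinase genes at an unadjusted p below 0.05 as without it, beside 7.86% of all genes with the block and 11.1% without. The call of Crem was lost with the replicate block (FDR 0.0848), without saline rat 4 (FDR 0.0649) and without METH rat 4 (FDR 0.0620). It was also lost without saline rat 1 and METH rat 3 together (FDR 0.0903). Same-numbered rats are different animals, and their deviations correlated at -0.09 on average. Total-count scaling moved the median log2 fold change of all genes from -0.01 to -0.04 and turned no kinase gene. Levels as CPM of total counts moved by less than 1 SD in both groups for all 10 kinase genes.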
